A study of Mus musculus with 2 samples.

Results

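The genes described here are 7 that encode products of mucosal defence and of immune metabolism: Ltf, Lcn2, Slpi, Wfdc2, Clu, Lyz1 and Irg1. They were chosen by gene symbol, and all 7 were found among the 22740 genes of the deposited table, in which Irg1 is the older symbol of Acod1. RNA was sequenced from the whole uterus of 2 C57BL/6 mice (libraries titled WT1 and WT2, here uterus 1 and uterus 2) on day 4 of pregnancy, with 1 library per animal and no second group, so the data give the level of each gene and how far the animals differed. The labels name no allele and no agent. Their age and whether embryos were removed from the lumen are not given in the sources used here. Whole uterus holds epithelium, glands, stroma, muscle, vessels and leukocytes together, so fewer cells of a type and less RNA per cell cannot be told apart, and the cell that made a transcript is not known.

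The inner surface of the uterus is a mucosa that must keep microbes in check while it prepares for an embryo carrying paternal antigens. Its epithelium secretes proteins that bind iron, split bacterial walls or block proteases, and sex steroids control several of them. Ltf encodes lactotransferrin (lactoferrin), an iron-binding protein that oestrogen induces in the mouse uterine epithelium. Lcn2 encodes lipocalin 2, which captures bacterial siderophores. Slpi and Wfdc2 encode small proteins with WAP domains, compact folds held by disulphide bonds; Slpi inhibits leukocyte elastase and related serine proteases. Clu encodes clusterin, a secreted chaperone that also binds terminal complement. Lyz1 encodes a lysozyme, which cuts bacterial peptidoglycan. Irg1 differs from the others in that its product stays in the cell: it is the mitochondrial enzyme that makes itaconate from the citrate cycle intermediate cis-aconitate, known from activated macrophages and from the progesterone-primed uterine epithelium.

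Expression is given as RPKM, the number of reads scaled to transcript length and library size, which allows levels of different genes to be compared. The reads behind the RPKM values were recovered as whole numbers, most likely summing to 3850740 in uterus 1 and 4278903 in uterus 2. The smallest sums that the values allow are 3486803 and 3874240. The reads of 4192 genes rest on the nearest annotated length and those of 1205 on the smallest reads possible. The lengths behind the reads of the 7 genes equal annotated ones, but 257 and 367 reads for Ltf would also give a whole length. The libraries were not copies of each other: a chi-square of the reads averaged 3.53 per gene over 13441 genes, above the value near 1 that counting error alone gives. Epithelial markers were present in both uteri, with 8 of 8 listed at 1 RPKM or more.

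Lyz1 was the one gene of the 7 that shared exact 50-base windows with another annotated protein-coding gene. It lies 5522 bases from its close copy Lyz2, the lysozyme of macrophages and neutrophils, on chromosome 10. The coding sequences of both are 447 bases long, and they were identical at 425 positions (95.1%), with a longest identical run of 118 bases. The stretch with the most differences, coding bases 37 to 156 counted from the start codon, is shown because it is where a read can best be assigned to one gene; capitals mark the 14 positions that differ.
Lyz1: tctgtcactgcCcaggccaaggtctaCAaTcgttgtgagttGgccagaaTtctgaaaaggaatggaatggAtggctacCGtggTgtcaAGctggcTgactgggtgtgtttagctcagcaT
Lyz2: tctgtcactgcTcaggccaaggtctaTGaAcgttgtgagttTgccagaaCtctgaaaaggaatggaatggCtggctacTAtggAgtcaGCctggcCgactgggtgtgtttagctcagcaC
Of the 1215 windows of 50 bases in the Lyz1 transcript, 195 (16.0%) also occur in Lyz2, so the level of Lyz1 is uncertain to the extent that such reads were assigned to either. For the other 6 genes, no window of 50 bases occurred in another annotated protein-coding gene; shorter windows, mismatches and pseudogenes were not checked. No exon of the 7 genes overlapped an exon of another annotated gene on either strand.

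All 7 genes lay at 1 RPKM or more in both uteri, a level that 13280 genes (58.4%) of the table reached. Their means spanned 26.1-fold, and their median was 47.2 RPKM, against 10.99 RPKM over the 13647 genes whose mean was 1 RPKM or higher. Together they made up 0.0900% of the summed RPKM in uterus 1 and 0.0938% in uterus 2, on 2185 and 2653 reads.

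Among the secreted protease inhibitors, Wfdc2 (NM_026323, build mm9, chromosome 2, 164388216 to 164394006, plus strand, 5 exons) was the highest of the 7. Uterus 1 gave 173.5 RPKM and uterus 2 gave 149.7 RPKM, a mean of 162 ± 16.9 RPKM (SD, n = 2) on 471 and 451 reads. It ranked 251st of all genes by mean, above 98.9% of them. Uterus 2 was the lower library for Wfdc2, at 0.863 times the level of uterus 1 (95% exact interval from the reads 0.756 to 0.984). The exact binomial test gave a Benjamini-Hochberg adjusted p of 0.218, so this difference did not pass.

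Slpi (NM_011414, chromosome 2, 164179806 to 164182243, minus strand, 4 exons) had 6.55 RPKM in the first uterus, from 22 reads, and 26.6 RPKM in the second, from 99 reads. Uterus 2 was therefore far higher, and the intervals that counting error allows did not overlap: 4.10 to 9.92 RPKM for the first animal and 21.6 to 32.3 RPKM for the second. The ratio was 4.05-fold (95% exact interval 2.53 to 6.76), or 2.0 on the log2(RPKM + 0.1) scale. Its mean of 16.6 ± 14.1 RPKM (SD, n = 2) describes neither animal well. Wfdc2 exceeded Slpi 26.5-fold in uterus 1 but 5.64-fold in uterus 2.

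Other WAP genes are listed on the outer side of each of the pair on chromosome 2, such as Wfdc15b before Slpi and Wfdc6a after Wfdc2. Slpi and Wfdc2 lie 205972 bases apart, with no WAP gene listed between them. Of the 7 listed genes that lie wholly between them, 5 reached 1 RPKM in both uteri. The 2 highest, picked after their values were seen, were Sdc4, a cell surface proteoglycan, with 53.9 and 56.6 RPKM, and Pigt, a subunit of the enzyme that attaches GPI anchors, with 31.6 and 25.4 RPKM. Both neighbours were less than 2-fold apart.

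Ltf (NM_008522, chromosome 9, 110921796 to 110945270, plus strand, 17 exons) gave 48.9 RPKM for uterus 1 and 62.9 RPKM for uterus 2, a mean of 55.9 ± 9.90 RPKM (SD, n = 2). Those values rest on 514 and 734 reads, so Ltf had far more reads behind it than Slpi. It was higher in uterus 2, 1.29-fold (95% exact interval 1.15 to 1.44), and 9.05% of the 6841 genes between 10 and 100 RPKM had a log2 ratio at least as far from 0. Its level exceeded that of Trf, the serum iron carrier transferrin of the same family, 2.72-fold in uterus 1 and 3.15-fold in uterus 2.

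Lcn2 (NM_008491, chromosome 2, 32240157 to 32243259, minus strand, 6 exons) was the lowest of the 7. Its level was 5.50 RPKM for uterus 1 and 6.89 RPKM for uterus 2, a mean of 6.19 ± 0.978 RPKM (SD, n = 2), which lay above 58.9% of all genes. Only 18 and 25 reads support it, and the counting intervals of 3.26 to 8.70 RPKM and 4.46 to 10.2 RPKM overlapped. A difference from 0.656-fold to 2.43-fold between the animals is compatible with those reads. In uterus 1 Slpi was near Lcn2, at 1.19 times its level, and in uterus 2 it was 3.86 times higher.

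Lyz1 (NM_013590, chromosome 10, 116724851 to 116729924, minus strand, 4 exons) was measured at 27.6 and 28.6 RPKM in uterus 1 and uterus 2, on 134 and 154 reads. The mean was 28.1 ± 0.690 RPKM (SD, n = 2). Both animals gave nearly the same value, with a ratio of 1.04 (95% exact interval 0.816 to 1.31). Lyz2 was much higher than Lyz1, at 217.9 and 235.8 RPKM, 7.89-fold in uterus 1 and 8.25-fold in uterus 2. Reads shared with Lyz2, which held 883 and 1061 reads, are the limit on the level of Lyz1, and their number was not tested.

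Clu (NM_013492, chromosome 14, 66587320 to 66600382, plus strand, 9 exons) was measured at 46.4 and 48.0 RPKM, a mean of 47.2 ± 1.06 RPKM (SD, n = 2) on 322 and 369 reads. Its ratio was 1.03 (95% exact interval 0.887 to 1.20), and it lay above 94.3% of all genes.

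Irg1 (NM_008392, chromosome 14, 103446229 to 103455790, plus strand, 5 exons) gave 70.9 RPKM for uterus 1 from 704 reads and 74.5 RPKM for uterus 2 from 821 reads. Its mean of 72.7 ± 2.54 RPKM (SD, n = 2) placed it second among the 7 and above 96.8% of all genes. The animals were close, with a ratio of 1.05 (95% exact interval 0.949 to 1.16).

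The order of levels by mean was therefore Wfdc2, Irg1, Ltf, Clu, Lyz1, Slpi and Lcn2. Wfdc2 exceeded Irg1 by 88.8 RPKM, Irg1 exceeded Ltf by 16.8 RPKM and Clu exceeded Lyz1 by 19.1 RPKM, each more than the larger SD of the pair. Ltf and Clu did not differ beyond their spread, since the gap of 8.69 RPKM was under the SD of Ltf. Slpi was not separated beyond its spread from Lyz1 above it or from Lcn2 below it. In uterus 2 Slpi stood beside Lyz1, and in uterus 1 beside Lcn2.

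**Figure D1:**
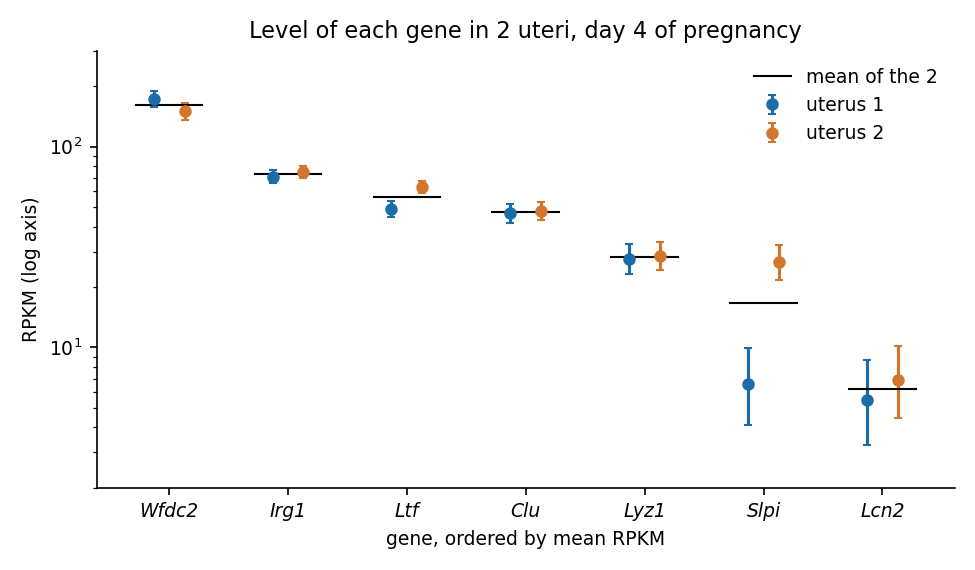
RPKM on a log axis of each gene in uterus 1 and uterus 2, with 95% exact Poisson intervals from the recovered reads (counting error only) and a line at the mean. The points of Slpi at 6.55 and 26.6 RPKM stand apart with intervals that do not overlap, whereas those of Irg1, Clu and Lyz1 nearly coincide.

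Set against all genes, the difference in Slpi was past 2-fold and those in the other 6 were within it. Of the 7 genes, 1 was at least 2-fold apart between the uteri, against 2.6% of the 13647 genes whose mean reached 1 RPKM. Among the 6841 genes between 10 and 100 RPKM, 13 (0.190%) had a log2 ratio as far from 0 as that of Slpi. The log2 ratio was 0.36 for Ltf, 0.32 for Lcn2, 0.07 for Irg1, 0.05 for Clu, 0.05 for Lyz1 and -0.21 for Wfdc2. Values were higher in uterus 2 for 6 of the 7, with a median log2 ratio of 0.07, against 50.1% of all these genes and a median of 0.0007.

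**Figure D2:**
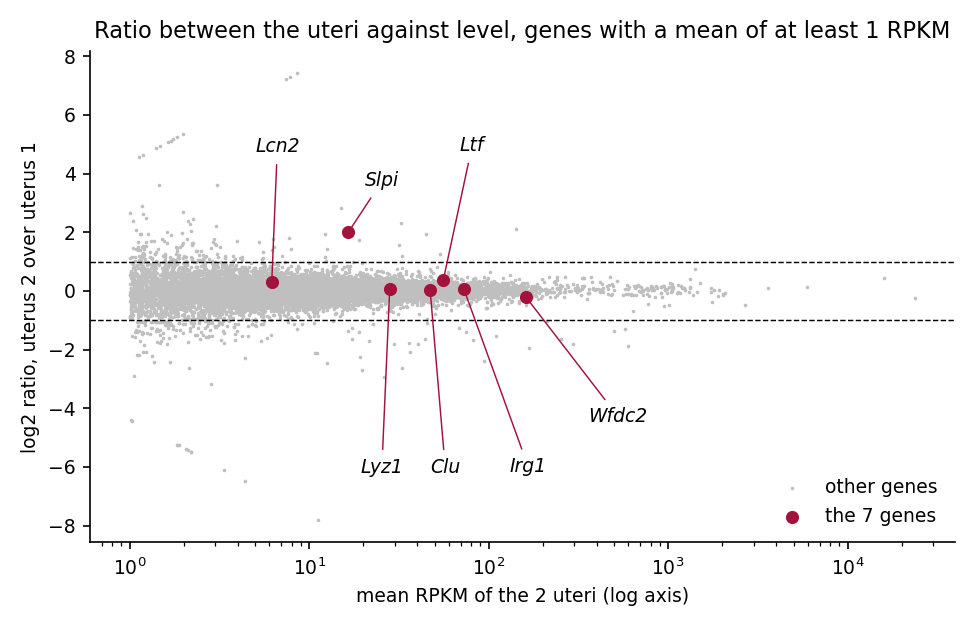
Log2 ratio of uterus 2 over uterus 1, on the log2(RPKM + 0.1) scale, against mean RPKM (log axis) for all genes whose mean reached 1 RPKM; dashed lines mark 2-fold. Slpi lies above the upper line at 2.0, and the other 6 genes lie between the lines within the band of all genes.

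The recovered reads were then compared by a two-sided exact binomial test over 15157 genes, which asks whether these libraries differ, not whether a condition does. It called 2 of the 7 genes, Slpi and Ltf, against 4.86% of all genes tested. The Benjamini-Hochberg adjusted p of this exact test was 5.3e-09 for Slpi and 0.00068 for Ltf. For the other 5 it ran from 0.218 for Wfdc2 to 0.980 for Lyz1 in the same exact test. The call of Ltf depends on how reads were recovered across the table. With every gene at the smallest reads that its RPKM values allow (257 and 367 for Ltf), the adjusted p of the exact test was 0.0512, and with Ltf alone at those reads it was 0.0438. The test covers counting error only, and the libraries differed by more than that across all genes.

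The WAP family shows how Slpi and Wfdc2 compare with their relatives. Of 22 listed members, 11 lay at 1 RPKM or more in both uteri and 6 were listed at 0 in both. A listed 0 is not read as absence, since Rpl26, a ribosomal protein gene that cells in general use, is also listed at 0. Wfdc2 held 53.8% of the family's summed RPKM in uterus 1 and 45.5% in uterus 2. Wfdc1 followed at 102.2 and 109.9 RPKM, with 31.7% and 33.5% of the sum. Slpi accounted for 2.03% in uterus 1 and 8.08% in uterus 2. Wfdc3 was measured at 11.1 and 14.6 RPKM, with 35 and 51 reads behind it. By the exact binomial test, the libraries differed in 1 of the 12 members with at least 6 reads, Slpi, against 4.86% of all genes tested, so the count says nothing particular of the family. Wfikkn1 was the other member at least 2-fold apart, lower in uterus 2 at 2.47 and 1.02 RPKM, but on 24 and 11 reads it had an adjusted p of 0.173 in the exact test.

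Lcn2 was the highest of 18 listed lipocalin genes, of which 5 lay at 1 RPKM or more in both uteri and 10 were listed at 0 in both. The next was Rbp4, a retinol carrier, at 2.41 and 2.36 RPKM on 12 and 13 reads. Orm2, an acute phase protein, was measured at 3.03 and 1.52 RPKM on 9 and 5 reads, and Apod, a lipid carrier, at 1.68 and 2.02 RPKM on 12 and 16 reads. In the lysozyme family only Lyz1 and Lyz2 of 10 listed genes reached 1 RPKM in both, and 6 were listed at 0 in both. In the transferrin family, Trf was measured at 18.0 and 19.9 RPKM and Mfi2 was listed at 0.

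**Figure D3:**
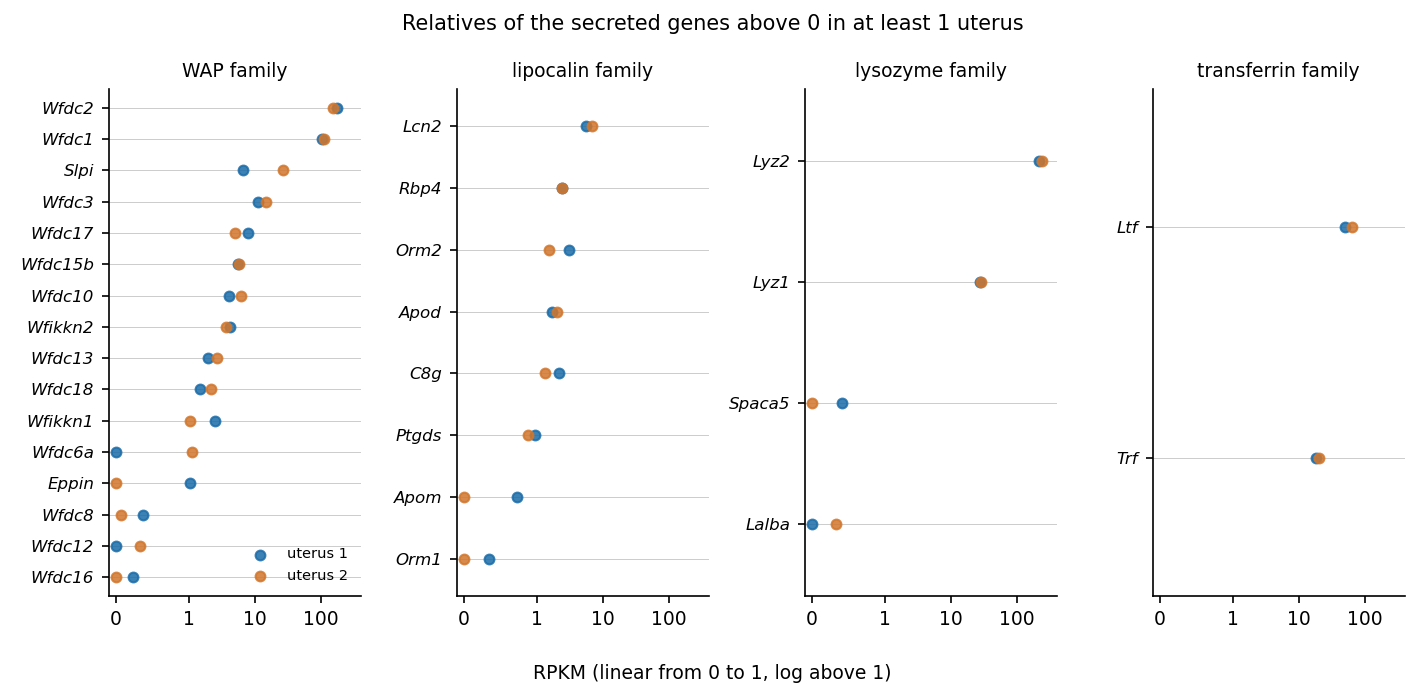
RPKM in uterus 1 and uterus 2 of every WAP, lipocalin, lysozyme and transferrin family gene above 0 in at least 1 uterus, on an axis that is linear up to 1 and logarithmic above. Wfdc2, Lcn2 and Ltf head their families, Lyz1 lies below Lyz2, and the points of Slpi are the widest apart among genes above 5 RPKM in both.

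Of 66 other secreted defence genes listed, 7 lay at 1 RPKM or more in both uteri and 49 were listed at 0 in both, among them 40 of the 43 genes whose symbols begin with Defb (beta-defensins). Those 43 genes held 2 reads in uterus 1 and 3 in uterus 2. The highest was Rnase4, a secreted ribonuclease, at 62.1 and 69.9 RPKM. Lbp, which hands bacterial lipopolysaccharide to its receptor, was measured at 42.5 and 48.2 RPKM. Cxcl17, a mucosal chemokine, was measured at 11.3 and 19.2 RPKM, and Pigr, the transporter of polymeric immunoglobulins into secretions, at 5.96 and 8.49 RPKM. None of the 8 with enough reads was called by the exact binomial test, against 4.86% of all genes tested. An unadjusted exact p under 0.05 was reached by 3 of the 8 (Cxcl17 at 0.0137, Pigr at 0.00948 and Ang at 0.0194) and by 15.9% of all genes tested. Ang, a secreted ribonuclease, was at least 2-fold higher in uterus 2 on 10 and 26 reads, as was the alarmin S100a9 on 1 and 4 reads. The listed spans of Ang and Rnase4 begin at the same base on the same strand, and Rnase4 had 475 and 594 reads. How reads that fit both genes were assigned was not tested, so the values of Ang are uncertain. Sftpd, a collectin that binds microbes, was at least 2-fold lower on 8 and 4 reads.

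The receptors and targets of the secreted proteins were measured in the same tissue. Lrp2 (megalin), an endocytic receptor that takes up clusterin and lipocalin 2, lay at 87.7 and 104.6 RPKM, and Lrp1, which takes up lactoferrin, at 96.2 and 84.5 RPKM. Lrp2 held 5199 and 6884 reads and Lrp1 5492 and 5354. Both were called by the exact binomial test, Lrp2 higher in uterus 2 with an adjusted p of 3.1e-19 and Lrp1 lower with 3.0e-09. Their ratios were only 0.25 and -0.19 on the log2 scale. The test covers counting error only, so with this many reads it calls small differences between libraries. No other of the 6 receptor genes with enough reads was called, and 4.86% of all genes tested were. Slc22a17, a lipocalin 2 receptor, was measured at 12.2 and 15.8 RPKM and Vldlr, a clusterin receptor, at 27.4 and 29.2 RPKM, and neither was called. Among the serine proteases that Slpi inhibits, the neutrophil proteases Elane and Ctsg were listed at 0. The mast cell proteases Cma1, Tpsb2 and Tpsab1 lay at 7.999 and 6.769, 3.356 and 5.615, and 1.314 and 1.578 RPKM, and none of the 3 was called.

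For Irg1, genes of the citrate cycle and of itaconate handling give the setting. Of 18 listed, with a median of 39.1 RPKM, 17 lay at 1 RPKM or more in both uteri, and Irg1 lay within the range of the cycle's own enzymes. Its level was 0.834 and 0.905 times that of Cs (citrate synthase, 85.03 and 82.33 RPKM). Sdha, the catalytic subunit of the succinate dehydrogenase that itaconate inhibits, was measured at 71.9 and 77.8 RPKM. The exact binomial test called 1 of 17 genes, a share near the 4.86% of all genes tested. That gene, Sdhc, a membrane anchor of the same enzyme, was lower in uterus 2 at 57.1 and 39.5 RPKM, with an adjusted p of 0.0041. Sdhb and Sdhd, further subunits of it, were not called, at 66.1 and 64.2 RPKM and 52.6 and 54.9 RPKM. Clybl, which takes part in the breakdown of itaconate, was measured at 7.78 and 7.38 RPKM, and Oxgr1, a receptor for itaconate, was listed at 0.

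Ltf, Lcn2, Slpi and lysozyme are also made by leukocytes, so marker genes of several cell types were measured beside them. Of 11 neutrophil markers listed, 4 lay at 1 RPKM or more in both uteri. The granule genes Camp, Ngp and Elane were listed at 0, which is not read as absence. The 11 neutrophil markers together summed to 16.7 RPKM in uterus 1 and 22.8 RPKM in uterus 2, led by Retnlg at 6.43 and 11.2 RPKM. None of the 4 with enough reads was called: Retnlg, Cxcr2 (55 and 57 reads), Csf3r (49 and 60 reads) and Mpo (4 and 4 reads). Macrophage markers summed to 358.7 and 375.4 RPKM, with all 8 at 1 RPKM or more, 4 of them higher in uterus 2 and none called. Lyz2 is among the 8 and alone held 217.9 and 235.8 RPKM, so these sums are mostly lysozyme. The median log2 ratio of the list was 0.006.

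Beside the higher Slpi and Ltf in uterus 2, the epithelial list as a whole did not move one way. Its sum was 278.7 RPKM in uterus 1 and 305.4 RPKM in uterus 2, and 4 of its 8 genes were higher in uterus 2. The exact binomial test called Krt18, a keratin, higher at 70.4 and 94.3 RPKM with an adjusted p of 0.00064. It called Cldn4, a tight junction protein, lower at 11.4 and 5.19 RPKM with an adjusted p of 0.0022. Gland markers were higher in uterus 2 in 3 of 3 genes whose mean reached 1 RPKM, with sums of 53.6 and 83.0 RPKM over the 4 listed. The largest of them, Spink3, lay at 46.4 and 71.8 RPKM with an adjusted p of 0.0512 in the exact test, and Foxa2 lay at 3.07 and 5.19 RPKM with 0.254, so no gland gene was called. Plasma cell markers were higher in 5 of 5 such genes, with sums of 171.6 and 402.4 RPKM, of which Igj alone held 53.2 and 229.7 RPKM. Igj and Xbp1 (79.0 and 124.2 RPKM) were called, and Sdc1, Mzb1 and Pou2af1 were not. Stromal markers summed to 3315 and 3011 RPKM, but 3 of 5 were higher in uterus 2, with a median log2 ratio of 0.02. Col1a1 (1184 and 851 RPKM) and Pgr were called lower in uterus 2. Col3a1 (1908 and 1939 RPKM), Hoxa10 and Hand2 were higher there and not called. Smooth muscle markers summed to 1328 and 1318 RPKM, with Myh11 called higher and Acta2 lower. For comparison, 50.1% of all genes whose mean reached 1 RPKM were higher in uterus 2, and 4.86% of all genes tested were called. The lists are short, and no test was made of whether a whole list shifted. The part of any of these cell types in the difference of Slpi or Ltf was not tested.

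**Figure D4:**
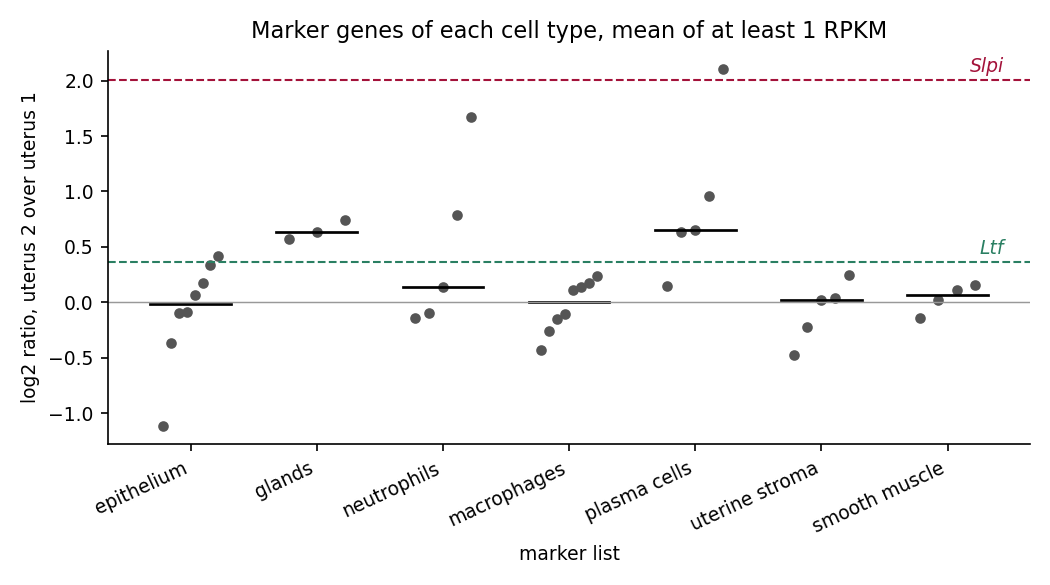
Log2 ratio of uterus 2 over uterus 1, on the log2(RPKM + 0.1) scale, of each marker gene whose mean reached 1 RPKM, by cell type list, with a line at each list's median and dashed lines at the ratios of Slpi (2.0) and Ltf (0.36). The gland and plasma cell medians of 0.63 and 0.65 lie above that of Ltf, and Igj at 2.11 is the one marker above Slpi.

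With 2 libraries, the pattern of a gene consists of its level in each, and likeness was measured as the distance between log2(RPKM + 0.1) values over both. The 2 protein-coding genes nearest to Ltf were Bola2 (48.0 and 62.7 RPKM) and Ugp2 (50.6 and 65.0 RPKM), at distances of 0.03 and 0.07. Slpi had no close match: its nearest genes were Pcdhb9 (4.95 and 19.5 RPKM) and Fuom (7.62 and 17.0 RPKM), at distances of 0.60 and 0.68. For the other 5 the nearest gene lay within 0.04, namely Col6a3 for Wfdc2, Wls for Irg1, Vps35 for Clu, Tsnax for Lyz1 and 1700030K09Rik for Lcn2.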

How the data were processed

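Per the labels' protocols, RNA was extracted from whole uterus with TRIzol and libraries were built with the TruSeq RNA kit; the design text adds poly-A selection. The deposited values are RPKM, normalized by the authors per the labels. The submitters' processing notes name TopHat, edgeR and the build mm9; the counting program, annotation release, read length and use of strand are not given in the sources used here. Both deposited tables held identical RPKM values for all 22740 genes.

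Starts were read as counted from 0 and are printed counted from 1. In single-exon genes whose ends equal those in GENCODE M1 (NCBIM37), 100% of 297 and 300 values were whole multiples, within 0.001 reads, of 1 read at scaling totals of 3834174 and 4256101. Elsewhere reads were the whole numbers that give a whole transcript length nearest an annotated one. For all 7 genes that length equalled an annotated transcript with its outer ends moved to the deposited ends, by at most 500 bases in all. For 1205 genes without a matching annotation the smallest reads were used.

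Ratios used a pseudocount of 0.1 RPKM and genes whose mean reached 1 RPKM. Genes with at least 6 reads in sum were compared by exact binomial tests (SciPy 1.17.1) with Benjamini-Hochberg adjustment; intervals are 95% Clopper-Pearson or Poisson, cover counting error only, and PCR copies are not independent molecules. The procedure was tested on simulated data, but no error rate of read recovery or of calls in these libraries is given here. The members, lists and tests were chosen with earlier results of these data known. The rule for named genes took all 7 members, the 2 nearest genes by level for each (for 5 members only the nearest is printed), and from each list up to 4 of its highest, those at least 2-fold apart, and partners of a member. Others named, such as Il1b, Tnf, Il6, Camp and Ngp, were chosen after their values were seen. Protein sequences were not used here, so paralogues were aligned as coding sequences (Biopython 1.88).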

Additional observations from a re-analysis of the deposited data

How the results depend on the processing

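With 1 read-based exception, the counts over the 7 genes were the same under every alternative run. All 7 were detected at thresholds of 0.5, 1 and 2 RPKM and in either library alone. The count at least 2-fold apart was 1 with pseudocounts of 0.01 and 1 RPKM, without a filter, with a filter at a mean of 10 RPKM, on the TPM scale and after centring. No log2 ratio changed sign; that of Slpi ran from 1.87 (pseudocount of 1 RPKM) to 2.02 (0.01 RPKM). The exact binomial test called 2 genes when libraries were scaled by summed reads or 20 reads were required, and 1 with every gene at its smallest possible reads, where Ltf had an adjusted p of 0.0512. With Ltf alone at its smallest reads, an alternative chosen after seeing the data, the adjusted p was 0.0438. Slpi kept an adjusted p from 4.7e-09 to 6.0e-09. The share of genes below Lcn2 was 58.9% of all and 55.7% of those with NM_ identifiers; for Slpi it was 79.1% and 77.4%, and for the other 5 it moved by under 1 percentage point. A mean of 2 libraries always lies within 1 SD of each, so leaving one out could not move a level beyond its spread. Lcn2, on 18 and 25 reads, is the gene most limited by depth. No paired analysis was possible because both libraries belong to the same group.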

Other observations

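Genes known to induce epithelial defence were measured as well. Of 16 listed, 10 lay at 1 RPKM or more in both uteri and 3 (Il22, Ifnb1 and Ifng) were listed at 0 in both. Signalling components were higher than the cytokines: Myd88, the adaptor of Toll-like receptors, was measured at 77.9 and 89.0 RPKM, Nfkb1 at 28.1 and 28.4 RPKM and Irf1 at 18.6 and 21.3 RPKM. The cytokine Il1b lay at 1.38 and 1.95 RPKM on 7 and 11 reads, Tnf at 0.322 and 0.581 RPKM on 2 and 4 reads, and Il6 had 3 reads in uterus 1 and none in uterus 2. The exact binomial test called none of the 11 with enough reads, against 4.86% of all genes tested. Of the 11, 1 gene, Myd88, had an unadjusted exact p under 0.05, at 0.0178, against 15.9% of all genes tested.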
